A study of Homo sapiens with 8 samples.

Results

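Transcripts of 9 receptor tyrosine kinases, MET, PDGFRA, PDGFRB, EGFR, ERBB2, ERBB3, KIT, RET and AXL, were followed through knockdown of the histone methyltransferase G9a in Rh41 cells. They are 9 of the 60234 genes listed in the deposited table, picked by symbol, and each symbol stood on 1 identifier. Rh41 is a long-established human line from alveolar rhabdomyosarcoma, a soft-tissue cancer that resembles developing skeletal muscle, and the labels describe it as positive for the PAX3-FOXO1 fusion, so both groups carry it. The 4 control libraries and the 4 siG9a libraries came from this 1 line. The sample labels name the reagent siG9a and the series title shG9a, and the labels used here give neither the control reagent nor the time after knockdown.

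A receptor tyrosine kinase spans the cell membrane, binds a secreted or membrane-bound ligand outside and phosphorylates tyrosines inside, which recruits adaptors that start the RAS-MAPK and PI3K-AKT cascades. MET binds hepatocyte growth factor and guides migrating muscle precursors, and its gene is a known target of PAX3. ERBB3 binds neuregulins, has little kinase activity of its own and signals by pairing with ERBB2. KIT binds stem cell factor, RET binds the GDNF family through GFRA co-receptors, AXL binds GAS6, and the PDGF receptors bind dimers of PDGF chains.

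The start regions of 3 of these genes, KIT, MET and AXL, are shown as examples that differ in content of CpG, the dinucleotide on which DNA methylation acts. They were picked after their values across libraries were seen. A link between CpG content and level or change was not tested. Each line holds the 250 bases before a transcript start in RefSeq (GRCh38.p14), read 5′ to 3′ on the gene's plus strand, with each CpG in capitals. KIT lies at chr4:54657707-54657956, MET at chr7:116671946-116672195 and the more upstream of the 2 AXL starts at chr19:41218973-41219222.
KIT: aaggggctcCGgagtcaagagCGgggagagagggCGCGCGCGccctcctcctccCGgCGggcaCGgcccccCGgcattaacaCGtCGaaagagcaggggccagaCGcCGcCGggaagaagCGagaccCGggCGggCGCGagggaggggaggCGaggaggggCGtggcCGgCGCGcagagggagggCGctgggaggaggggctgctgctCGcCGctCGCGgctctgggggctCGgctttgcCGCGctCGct
MET: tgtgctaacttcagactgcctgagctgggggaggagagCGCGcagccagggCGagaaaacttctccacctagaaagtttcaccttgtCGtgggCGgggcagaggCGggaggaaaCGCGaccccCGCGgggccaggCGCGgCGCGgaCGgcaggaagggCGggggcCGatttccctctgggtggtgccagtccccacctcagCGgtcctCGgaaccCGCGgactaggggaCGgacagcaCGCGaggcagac
AXL: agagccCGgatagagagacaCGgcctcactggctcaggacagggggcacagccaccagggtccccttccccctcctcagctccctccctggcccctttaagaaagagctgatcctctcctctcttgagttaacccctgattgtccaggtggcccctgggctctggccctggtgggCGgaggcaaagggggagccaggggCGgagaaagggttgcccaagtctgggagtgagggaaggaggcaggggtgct
The KIT region held 34 CpG, more than 93.2% of the 35116 regions of this length in the table. MET held 24 and AXL 4, which exceeded 76.3% and 29.3% of regions, against a median of 11. The dinucleotide CG reads the same on both strands, and 93.9% of regions held at least 1. The second AXL start held 13. Of the genes not shown, RET held 33 and 6 at its starts, PDGFRA 8 and 25, and EGFR 25 and 1. ERBB2 held 23 and PDGFRB 9. Of the 9 genes 8 were found in the table and ERBB3 was not. Neither methylation nor binding at these regions was measured here.

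Libraries held 1458825 to 1938665 reads assigned to genes, recovered as whole numbers from the deposited CPM (reads of a gene scaled to a common library total). One read was worth 0.516 to 0.685 CPM, so the floor of 3 reads lay at 1.55 to 2.06 CPM. EHMT2, which encodes G9a, ranged from 57.6 to 88.3 CPM in control and from 19.6 to 58.5 CPM in siG9a. It was lower in 4 of 4 pairs of libraries with the same replicate number. Of all genes tested, 30.2% moved in the same direction, up or down, in 4 of 4 pairs. EHMT2 changed by −1.10 ± 0.31 (SE) in log2, and its adjusted p was 0.191. The fit that takes the replicate number as a block, called the blocked fit here, gave 0.000472. The symbol stood on 7 identifiers, of which the one with the highest mean was used. Of 12 markers of rhabdomyosarcoma or muscle, called muscle markers here, 11 had reads and MYF5 was at 0 in all libraries. TFAP2B is in this list as a marker of the tumour rather than of muscle. The 2 libraries numbered 3 stood apart from the rest. Muscle markers summed to 397.9 CPM in the control library of that number and 260.9 CPM in its siG9a counterpart, where the others held 2437 to 2914 and 1046 to 1680 CPM. The sum was thus lower in siG9a within the number 3 pair and, without overlap, among the other libraries. Of 9 muscle markers tested, 6 fell in the blocked fit, where 6.52% of all genes tested were called lower. They were DES, CDH15, CHRNA1, ACTC1, TNNI1 and TFAP2B, each in 4 of 4 pairs (adjusted p 2.46e-08 to 0.00481). Unblocked, 0 passed (0.0898 to 0.567 for these 6), where 0% of all genes did. MYOD1 had a blocked adjusted p of 0.935. In the other marker lists COL1A1 (fibroblast), CDH1 (epithelial) and LAPTM5 (haematopoietic) also fell in the blocked fit (adjusted p 0.0410, 0.0171 and 0.00582). Whether the fall of muscle markers has a part in the changes of other genes was not tested. NEFM and NEFL, 2 neurofilament genes of the neural list, stood at 8046 and 1557 CPM in control replicate 3. In siG9a replicate 3 they stood at 7625 and 1302 CPM. They made up nearly all of the list's sums of 9621 and 8937 CPM in these 2 libraries. The others held 199 to 2063 CPM in control and 237 to 2963 CPM in siG9a. The number 1 libraries also differed from numbers 2 and 4. NEFM was at 155.6 CPM in control replicate 1 and 181.6 CPM in siG9a replicate 1, against 1562 to 2498 CPM in numbers 2 and 4. The libraries left without number 3 thus still differed in this gene. SYT1 of the same list was lowest in the number 3 libraries, at 4.92 and 2.28 CPM. Each tested receptor is therefore also given without the number 3 libraries. Summed epithelial markers ranged from 10.3 to 84.8 CPM in control and from 27.5 to 46.8 CPM in siG9a (ESRP2 at 0), with the highest value in each group in the number 3 library. Summed fibroblast markers ranged from 143.3 to 438.7 and from 69.1 to 362.6 CPM (POSTN at 0), with the lowest in the number 3 libraries. Haematopoietic markers summed to at most 49.4 CPM, melanocyte markers to at most 7.27 CPM (TYR and MLANA at 0) and endothelial markers to at most 5.16 CPM (CDH5 and CLDN5 at 0). In bulk RNA, fewer cells with a transcript and less of it per cell cannot be told apart.

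ERBB3 and MET were the main transcripts of the 9. Together they took 63.3% to 80.8% of the receptor reads in control libraries and 75.6% to 84.8% in siG9a libraries. QuantSeq counts transcript ends, so a level in CPM does not scale with gene length. By the mean over 8 libraries the order was ERBB3 (90.9 CPM), MET (64.2), AXL (14.98), ERBB2 (10.3), KIT (8.68), EGFR (6.44), PDGFRB (3.70), PDGFRA (3.14) and RET (0.151). The ranges of ERBB3 (14.8 to 141.6 CPM) and MET (46.2 to 104.7 CPM) overlapped, and every MET value was above every AXL value (1.23 to 28.6 CPM). From AXL down to RET the ranges of all neighbours overlapped. Summed over the 9 genes, control libraries held 189 ± 69.3 CPM and siG9a libraries 216 ± 74.3 CPM (SD, n = 4 each).

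**Figure D1:**
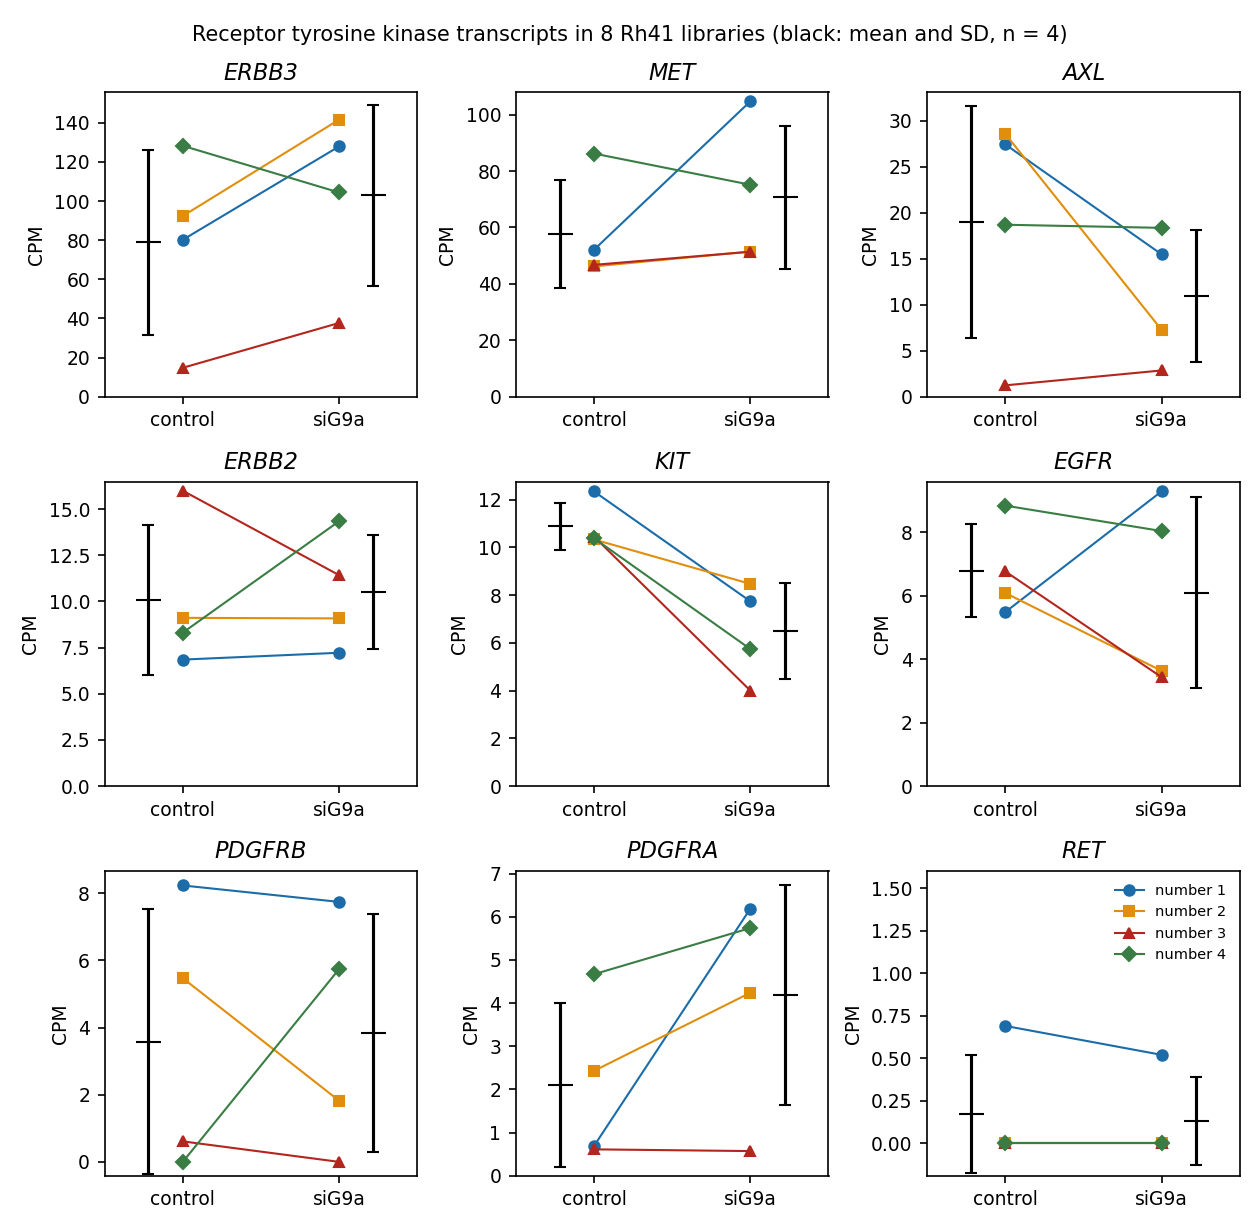
Level of each receptor transcript in CPM (vertical axes, linear, 1 panel per gene in order of mean level) in control and siG9a libraries; coloured lines join libraries with the same replicate number, and black bars give the mean and SD (n = 4). KIT is the panel whose 4 siG9a values (4.00 to 8.47 CPM) all lie below the 4 control values (10.3 to 12.3 CPM), and the number 3 libraries are lowest for ERBB3 and AXL.

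The knockdown comparison asked which receptor transcripts changed with less G9a. Of the 9 genes 8 had a mean of at least 1 CPM and were tested, and RET was not. None of the 8 passed an adjusted p of 0.05 in limma, where 0% of the 15092 genes tested passed. None had an unadjusted p under 0.05 in that fit, where 12.5% of all genes did. Also, edgeR without the block called 0 of the 8, where it called 0 genes in all. DESeq2 without the block called 0 of the 6 with an adjusted p (PDGFRA and PDGFRB had none), where it called 292 genes in all. In either, 0 of the 8 had an unadjusted p under 0.05, and the share of all genes at that level was not taken. With the replicate number as a block limma again called 0 of the 8, where 11.4% of all genes passed, and 2 (ERBB3 and KIT) had an unadjusted p under 0.05, where 25.5% of all genes did. Without both number 3 libraries 0 of the 8 were called, where 2.74% of all genes passed (0.782% higher and 1.95% lower), and in the blocked fit without them again 0 of the 8, where 7.14% passed (2.56% higher and 4.59% lower). By sign, 5 were higher and 3 lower in siG9a, with a median log2 change of 0.14 beside 0.01 over all genes tested. The limma log2 changes given here are on the log2(CPM + 1) scale, which understates the change of low genes.

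**Figure D2:**
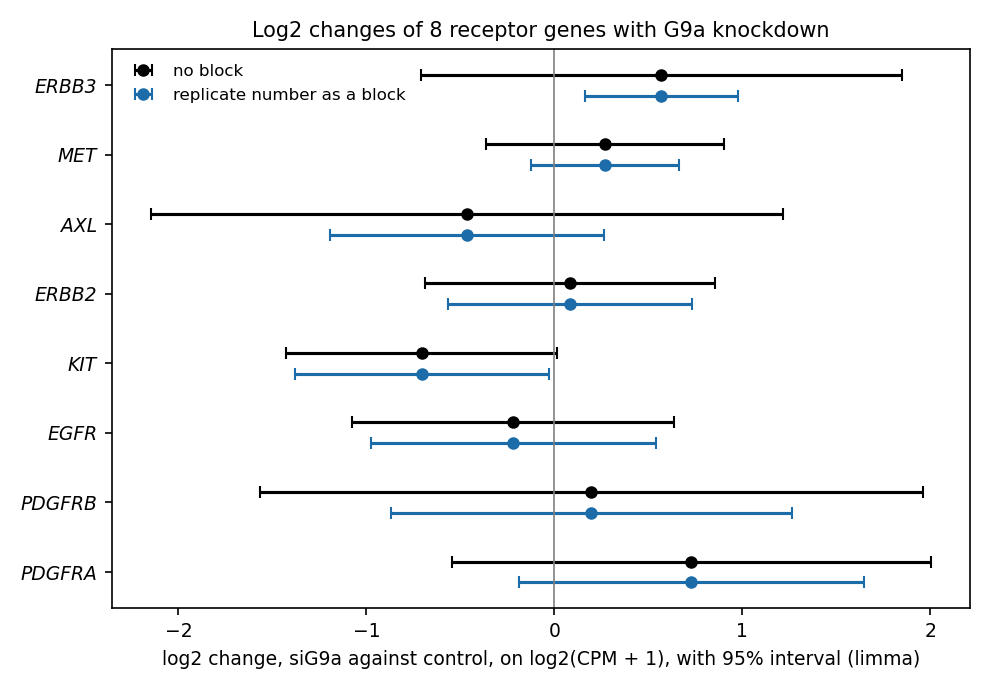
Log2 change of the 8 tested receptors, siG9a against control, on log2(CPM + 1), with 95% intervals from limma without a block (black) and with the replicate number as a block (blue). Without the block all 8 intervals cross 0, and with it those of ERBB3 (0.16 to 0.98) and KIT (−1.38 to −0.03) do not, before adjustment over all genes.

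KIT, the receptor for stem cell factor, measured 12.3, 10.3, 10.5 and 10.4 CPM in control replicates 1 to 4 and 7.74, 8.47, 4.00 and 5.74 CPM in siG9a. All siG9a libraries were below all control libraries and the groups did not overlap. Among the 8 tested receptors KIT alone had this separation, which 7.32% of all genes tested showed in either direction, 3.88% toward higher and 3.45% toward lower values in siG9a. Mean levels were 10.9 ± 0.978 and 6.49 ± 2.02 CPM (SD, n = 4 each). On the log2 scale KIT changed by −0.70 ± 0.33 (SE, 95% interval −1.43 to 0.02), and the adjusted p was 0.409 unblocked and 0.176 blocked. These values rest on 7 to 20 reads per library. In siG9a replicate 3, the lowest library, the 95% Wilson interval of 1.94 to 8.25 CPM reached up to the values of other siG9a libraries, not to control values. The intervals of siG9a replicates 1, 2 and 4 did reach control values (4.69 to 12.8, 5.05 to 14.2 and 3.12 to 10.6 CPM). For these libraries the gap to control thus lay within counting error. Without both number 3 libraries KIT changed by −0.54 in log2 (adjusted p 0.499). KITLG, which encodes the ligand, averaged 8.23 ± 1.5 CPM in control libraries against 7.4 ± 3.68 CPM after knockdown (SD, n = 4 each, adjusted p 0.865).

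ERBB3 measured 80.2, 92.4, 14.8 and 128 CPM in control replicates 1 to 4 and 128, 142, 37.7 and 104 CPM in siG9a. The number 3 library was the lowest in both groups, at 14.7% of the mean of the other control libraries and 30.2% of the mean of the other siG9a libraries, and the groups overlapped. ERBB3 was higher in siG9a in 3 of 4 pairs, by 0.67, 0.61 and 1.30 in log2 for numbers 1, 2 and 3, and changed by −0.29 for number 4. On the log2 scale ERBB3 changed by 0.57 ± 0.59 (SE, 95% interval −0.71 to 1.85), and the adjusted p was 0.747. In the blocked fit the SE was 0.20 and the adjusted p was 0.0626, and when pair 4 was left out of that fit the log2 change was 0.86 with an adjusted p of 0.00803. Without both number 3 libraries it was 0.33, at an adjusted p of 0.512, and without control replicate 3 alone it was −0.09. The low ERBB3 values moved with the low muscle markers and high NEFM and NEFL of the number 3 libraries, and the part of these in the result was not tested.

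ERBB2, the partner of ERBB3, had values of 6.85, 9.11, 16.0 and 8.31 CPM in control replicates 1 to 4 and 7.22, 9.08, 11.4 and 14.3 CPM in siG9a. Here control replicate 3 was the highest control library, opposite to ERBB3, and the groups overlapped. ERBB2 changed by 0.08 ± 0.36 in log2 (SE, 95% interval −0.69 to 0.86, adjusted p 0.953), and by 0.26 without both number 3 libraries (0.793). EGFR, which binds EGF and related ligands, ranged from 5.48 to 8.83 CPM in control (median 6.42) and from 3.43 to 9.28 CPM in siG9a (median 5.83), on 6 to 18 reads per library. EGFR changed by −0.22 in log2 (95% interval −1.08 to 0.64, adjusted p 0.878), and by −0.02 without both number 3 libraries (0.987). The control mean of ERBB2 was 10.1 ± 4.06 CPM beside 78.9 ± 47.4 CPM for ERBB3 (SD, n = 4 each), and, of the 8 libraries, only in control replicate 3 was ERBB2 (16.0 CPM) above ERBB3 (14.8 CPM).

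MET measured 52.1, 46.2, 46.7 and 86.2 CPM in control replicates 1 to 4 and 104.7, 51.5, 51.4 and 75.1 CPM in siG9a. Of the 8 values, 3 in control and 2 in siG9a lay between 46.2 and 52.1 CPM, and the groups overlapped, with siG9a replicate 1 the highest library and control replicate 4 the next. MET changed by 0.27 ± 0.29 in log2 (SE, 95% interval −0.36 to 0.90), and the adjusted p was 0.758 unblocked and 0.405 blocked. Without both number 3 libraries it changed by 0.32 (0.634). The number 3 libraries held 76% and 66.6% of the mean of the others in control and siG9a, a smaller gap than for ERBB3. The ratio of ERBB3 to MET in CPM was 1.54, 2.0 and 1.49 in control replicates 1, 2 and 4 and 0.316 in control replicate 3. In siG9a replicates 1, 2 and 4 it was 1.22, 2.75 and 1.39, and in replicate 3 it was 0.733.

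**Figure D3:**
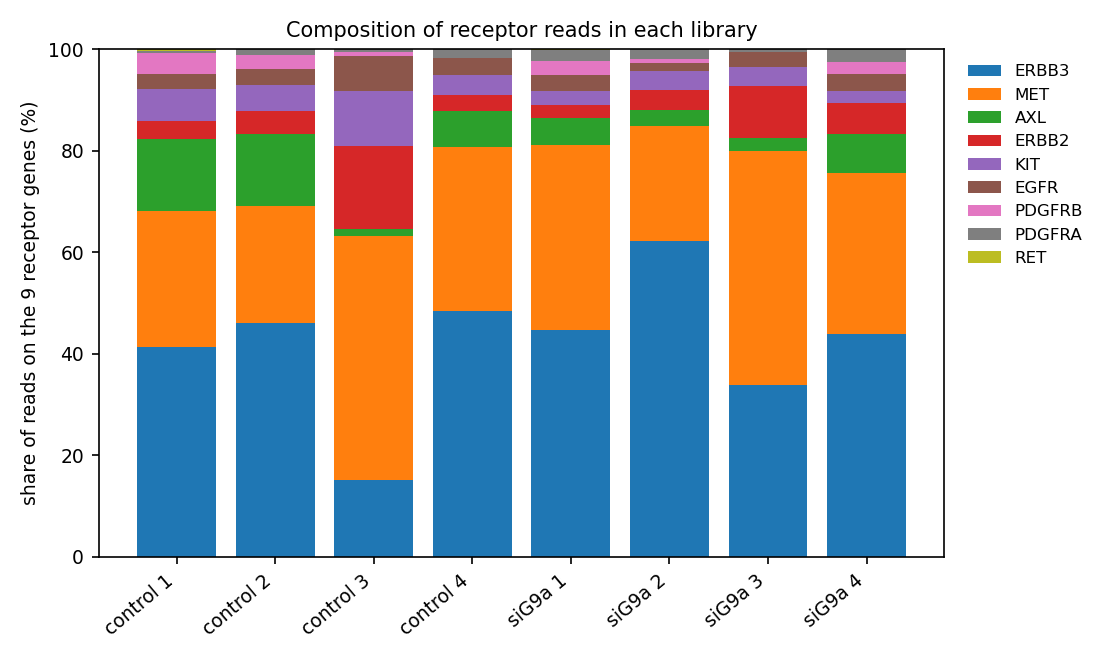
Share of the reads on the 9 receptor genes taken by each gene (vertical axis, percent) in each library (horizontal axis), stacked in order of mean level. ERBB3 takes 15.2% in control replicate 3 and 33.8% in siG9a replicate 3, and between 41.3% and 62.2% in the other 6 libraries.

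AXL measured 27.4, 28.6, 1.23 and 18.7 CPM in control replicates 1 to 4 and 15.5, 7.26, 2.85 and 18.4 CPM in siG9a. The number 3 libraries were the lowest in both groups, on 2 and 5 reads, at 4.94% and 20.8% of the mean of the others, and the groups overlapped. AXL changed by −0.47 ± 0.77 in log2 (SE, 95% interval −2.15 to 1.22), and the adjusted p was 0.867 unblocked and 0.443 blocked. Without both number 3 libraries it was −0.88 ± 0.36 (SE, 95% interval −1.65 to −0.12), with an unadjusted p of 0.0267 that did not pass after adjustment in limma (adjusted p = 0.215). GAS6 and PROS1, the AXL ligand and a relative that activates the same receptor family, had means of 1.39 and 2.68 CPM in control and 2.07 and 0.960 CPM in siG9a, at and near the floor.

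The PDGF receptors lay close to the floor. PDGFRA measured 0.69, 2.43, 0.61 and 4.67 CPM in control replicates 1 to 4 and 6.19, 4.24, 0.57 and 5.74 CPM in siG9a. It rested on 45 reads in all, with 3 libraries at or under 3 reads, and the groups overlapped. PDGFRA changed by 0.73 ± 0.59 in log2 (SE, 95% interval −0.55 to 2.0, adjusted p 0.668), and by 0.98 without both number 3 libraries (0.350). PDGFRB measured 8.23, 5.47, 0.61 and 0 CPM in control and 7.74, 1.82, 0 and 5.74 CPM in siG9a. High and low libraries occurred in both groups, and the 95% interval of the log2 change ran from −1.57 to 1.96, with a limma adjusted p of 0.951. The fitted change was 0.20, and 0.49 without both number 3 libraries (0.778). RET was listed at 0 in 6 of 8 libraries and rested on 1 read in each replicate 1 library, which is not distinguishable from 0 at this depth.

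In the annotation of GENCODE release 29, exons of ERBB2 are overlapped by MIEN1 and PGAP3 on the other strand (mean 28.5 and 23.8 CPM), those of EGFR by EGFR-AS1 (0 CPM) and those of AXL by AC011510.1. ERBB3 and PDGFRA exons are overlapped by AC034102.2 and AC058822.1 on the same strand. Whether the counting used strand is not given in the sources used here, so the values of ERBB2, EGFR and AXL are uncertain in that respect. Those of ERBB3 and PDGFRA are uncertain whether or not strand was used, since their overlaps lie on the same strand. MET, KIT, PDGFRB and RET had no exon overlap.

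Genes whose pattern over the 8 libraries was most like each receptor were named for the 4 receptors with a mean of at least 10 CPM, by Pearson's r of log2(CPM + 1) among 8897 genes at that level. The points share the group, the replicate number and the depth of a library. ERBB3 was closest to EPM2AIP1 (r = 0.98), TNFAIP3 (0.98) and RBM20 (0.97), which had r of 0.71, 0.89 and 0.47 over the 6 libraries without number 3. AXL was closest to FNDC3B (0.99), CAMSAP1 (0.99) and PKP1 (0.99), with r of 0.93, 0.95 and 0.92 without number 3. PKP1 measured 7.99 CPM in control replicate 3 and 13.1 CPM in siG9a replicate 3, where the other 6 libraries lay between 36.3 and 110.4 CPM. MET was closest to SFT2D2 (0.95), CCDC117 (0.94) and RNF6 (0.94), which kept r of 0.94, 0.97 and 0.94. ERBB2 was closest to SULT1A1 (0.97), MAZ (0.97) and SLC39A11 (0.96), which kept r of 0.98, 0.96 and 0.98.

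The genes around the receptors were read from 8 lists of ligands, co-receptors, adaptors, negative regulators, cascade members, output transcripts and other receptors, 157 distinct genes tested. In limma without the block 0 of the 157 were called. At an unadjusted p under 0.05 that fit had 1 ligand, 5 co-receptor and protease genes, 2 adaptors, 4 negative regulators, 3 PI3K-AKT, 5 RAS-MAPK, 4 output and 6 other receptor genes, where 12.5% of all genes were under it. With the block 32 (20.4%) were called, 6 higher and 26 lower in siG9a, where 4.86% and 6.52% of all genes tested were called higher and lower. The lists were chosen with earlier results of these data known, so the difference between these shares is not independent support. A change in the same direction in 4 of 4 pairs, given below for several genes, was shown by 30.2% of all genes tested. None of the 29 genes that the naming rule took passed without the block in edgeR or in limma with all 8 libraries at equal weight, and the unblocked limma adjusted p-values are given for each group. DESeq2 without the block called 4 of them, among which were MRAS, SPRY1 and ALK. limma without the block called 6 when array weights were used and 6 without both number 3 libraries, and MRAS, SPRY1 and ALK were among both. Of these 29 genes, 7 were called in each of the 4 blocked fits that left out a pair, among which were CD44, PLAT, MRAS, NRAS, SPRY1 and ALK. Leaving out pair 1, 2, 3 or 4 ended 17, 21, 8 and 5 of the 29 calls. Leaving out 1 library from the unblocked fit moved the log2 change of 11 of the 29 by over 1.5 times, and leaving out a pair from the blocked fit that of 2 (PDGFC and CCND1), with no change of sign. edgeR with the block called 28 of the 29 and DESeq2 with the block 18. The calls that DESeq2 did not make were those of PDGFC, GDNF, PLAU, NRP1, GRB10, LRIG3, PIK3R1, CCND1, ETV4, DUSP4 and FGFR4. Exons of GDNF, NRP2, CD44, PLAU, NRP1, PTPN1, TSC1, CCND1, ETV4 and EPHB2 are overlapped by a gene on the other strand, which for ETV4 was DHX8 at a mean of 31.7 CPM, and these values carry the same uncertainty about strand.

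Among the ligands 3 of 11 tested were lower with the block and none higher. PDGFA, a chain of the main PDGF receptor ligands, was the most abundant, at 457, 407, 78.1 and 394 CPM in control replicates 1 to 4 and 288, 184, 61.1 and 275 CPM in siG9a. It was lower in 4 of 4 pairs, and the number 3 libraries were far below the rest in both groups. PDGFA fell by 0.67 ± 0.15 in log2 (blocked SE), and the adjusted p was 0.00451 blocked and 0.694 unblocked. PDGFC, another PDGF chain, had means of 97.3 ± 48.6 and 59.5 ± 32.7 CPM (SD, n = 4 each), and was lower in 4 of 4 pairs (adjusted p 0.0452 blocked, 0.675 unblocked). GDNF, the RET ligand, had means of 7.61 ± 5.51 and 2.06 ± 1.15 CPM (SD, n = 4 each), and was lower in 3 of 4 pairs (adjusted p 0.0477 blocked, 0.344 unblocked). GDNF rested on 64 reads in all, with 3 libraries at or under 3 reads. DESeq2 with the block did not call PDGFC or GDNF, and each blocked fit without pair 1, 2 or 4 lost both calls. The PDGFA call was lost without pair 2 (adjusted p = 0.105). Unblocked, the PDGFA change ran from −1.27 without control replicate 3 to −0.17 without siG9a replicate 3, and that of PDGFC from −1.20 to −0.29 without the same libraries. Blocked, PDGFC was at −0.30 without pair 2. The median of the 11 ligands was −0.64 beside 0.01 over all genes, the lowest of the lists, and those of the other lists ran from −0.24 to 0.31. HGF, the MET ligand, and EGF each had 1 read in 1 library, HBEGF, another EGFR ligand, averaged 3.12 CPM in control and 2.48 CPM after knockdown (adjusted p 0.774), and PDGFB, AREG, BTC, EPGN and NRG3 were at 0 throughout. NRG1, a ligand of ERBB3, had means of 3.05 and 1.26 CPM, and an adjusted p of 0.527 unblocked and 0.159 blocked.

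Of 12 co-receptors and protease-linked genes tested, 4 were lower and 1 higher with the block. CD44, a surface glycoprotein that can act as a MET co-receptor, measured 61.7, 43.8, 71.3 and 48.3 CPM in control and 34.0, 29.7, 32.5 and 23.5 CPM in siG9a. Its groups did not overlap, and the blocked adjusted p was 0.00393. NRP2 and NRP1, co-receptors of several growth factors, fell by 1.00 and 1.25 in log2, each in 4 of 4 pairs (blocked adjusted p 0.00347 and 0.0468). The NRP2 call was lost without pair 2 (0.0573), and the NRP1 call without pair 1, 2 or 3 and in both count tests. NRP1 rested on 63 reads in all, with 2 libraries at or under 3 reads. PLAT, tissue plasminogen activator, fell by 1.06 in log2 (0.00440). PLAU, the urokinase protease that can activate hepatocyte growth factor, was at 2.06, 1.22, 1.23 and 1.04 CPM in control, on at most 3 reads, and at 20.1, 4.84, 1.71 and 4.59 CPM in siG9a (blocked adjusted p 0.0295). The highest PLAU library was siG9a replicate 1, and without pair 1, 2 or 4 the blocked adjusted p was 0.246, 0.105 and 0.0814. Unblocked, the adjusted p-values of these 5 ran from 0.186 to 0.385.

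**Figure D4:**
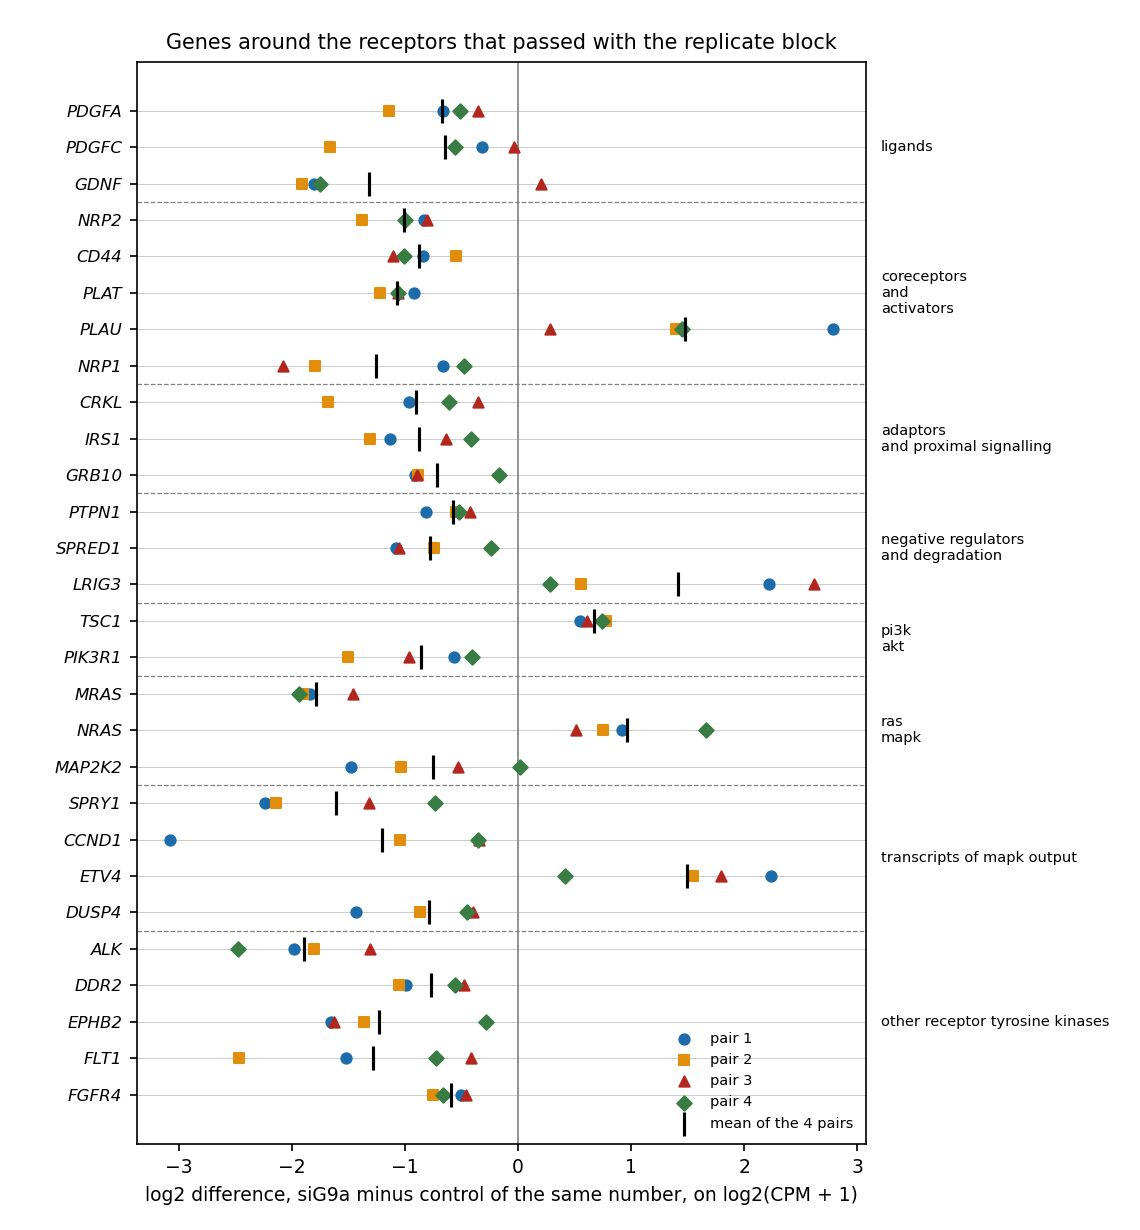
Log2 difference of siG9a minus control for each replicate number (coloured points, on log2(CPM + 1)) and their mean (black ticks) for genes called by limma with the replicate block and described in the text, grouped by list from ligands (top) to other receptors (bottom). Most points lie left of 0; PLAU, LRIG3, TSC1, NRAS and ETV4 lie to the right in 4 of 4 pairs, and GDNF and MAP2K2 each have 1 pair above 0.

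Among 23 adaptor and proximal signalling genes 3 were lower with the block and none higher. CRKL, an SH2-SH3 adaptor, fell from 51.6 ± 8.06 to 28.0 ± 9.25 CPM (SD, n = 4 each) and GRB10, an adaptor that dampens insulin-type receptors, from 41.7 ± 3.85 to 25.5 ± 6.56 CPM (SD, n = 4 each), both without overlap between groups. IRS1, the docking protein of insulin and IGF receptors, had a log2 change of −0.87 and was at 6.76 and 4.00 CPM in the number 3 libraries. In that order of CRKL, GRB10 and IRS1, blocked adjusted p-values were 0.00774, 0.0284 and 0.0161, and unblocked ones 0.226, 0.268 and 0.687. The unblocked IRS1 change ran from −1.58 without control replicate 3 to −0.24 without siG9a replicate 3. CRKL lost the call without pair 2, IRS1 without pair 1 or 2 and GRB10 without pair 1, 2 or 3. Of 25 negative regulators 2 were lower and 1 higher with the block, a share (12%) near that of all genes. PTPN1, a phosphatase that acts on several receptors, fell from 604 ± 116 to 405 ± 82.2 CPM (SD, n = 4 each, adjusted p 0.00613 blocked, 0.307 unblocked). The RAS-MAPK inhibitor SPRED1 had a log2 change of −0.78 and LRIG3, of a family that acts on ERBB receptors, was higher in 4 of 4 pairs at 3.31 ± 2.73 against 9.76 ± 7.11 CPM (SD, n = 4 each). Blocked adjusted p-values were 0.0126 and 0.0300, unblocked ones 0.462 and 0.387, and both calls were lost without pair 3 (0.0727 and 0.184), without pair 1 and without pair 2. Unblocked, SPRED1 changed by −0.40 without siG9a replicate 3 and LRIG3 by 0.82 without control replicate 3. LRIG3 had 93 reads in all and 0 in control replicate 3. PTPN1 missed the threshold narrowly without pair 1 (0.0531) or pair 2 (0.0505).

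In the PI3K-AKT list 2 of 20 genes were called with the block (10%). TSC1, which restrains mTOR, rose from 80.6 ± 8.28 to 129 ± 18.6 CPM (SD, n = 4 each) without overlap between groups (adjusted p 0.00543 blocked, 0.210 unblocked, 0.0635 blocked when pair 2 was left out). PIK3R1, a regulatory subunit of PI3K, fell from 33.3 ± 6.17 to 19.2 ± 9.13 CPM (SD, n = 4 each, adjusted p 0.0193 blocked, 0.326 unblocked), a call lost without pair 2 or 3. In the RAS-MAPK list 3 of 15 were lower and 1 higher. NRAS measured 29.5, 14.0, 38.1 and 21.3 CPM in control and 56.7, 24.2, 54.8 and 69.4 CPM in siG9a, higher in 4 of 4 pairs with overlap between groups (adjusted p 0.00452 blocked, 0.324 unblocked). MRAS, a RAS relative, fell by 1.78 in log2 from 84.3 to 22.6 CPM (1.62e-06 blocked, 0.213 unblocked). MAP2K2, the kinase MEK2, had a log2 change of −0.76 (0.00654 blocked, 0.315 unblocked) and lost the call without pair 1 or 2. Unblocked and without siG9a replicate 1 it changed by −0.48.

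Transcripts taken as read-outs of MAPK activity did not move one way: of 19 tested, 3 were lower and 1 higher with the block. SPRY1, a feedback inhibitor, measured 74.0, 67.5, 31.4 and 56.1 CPM in control and 14.96, 14.5, 11.99 and 33.3 CPM in siG9a, lower in 4 of 4 pairs (adjusted p 8.81e-05 blocked, 0.117 unblocked). CCND1, cyclin D1, fell by 1.20 in log2 from 156 ± 45.8 to 83.4 ± 61.2 CPM (SD, n = 4 each, adjusted p 0.00449 blocked, 0.352 unblocked), a call that DESeq2 with the block did not make and that was lost without pair 1. CCND1 was at 19.6 CPM in siG9a replicate 1, and its change was −0.58 without pair 1 (blocked) and −0.64 without that library (unblocked). The phosphatase DUSP4 had a log2 change of −0.79 (0.0467 blocked, 0.314 unblocked), a call lost in each fit without a pair. ETV4, an ETS factor induced by this cascade, was at 1.38 ± 0.674 CPM in control, on at most 3 reads, and at 6.74 ± 4.99 CPM in siG9a (SD, n = 4 each, adjusted p 0.0227 blocked, 0.273 unblocked), a call lost without pair 1, 2 or 3.

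Of 34 other receptor tyrosine kinases tested, 7 were lower and 1 higher with the block. ALK, a receptor of neural and muscle precursors, measured 17.1, 19.4, 4.30 and 33.2 CPM in control and 3.61, 4.84, 1.14 and 5.16 CPM in siG9a, and fell in 4 of 4 pairs by 1.89 ± 0.34 in log2 (blocked SE, adjusted p 0.000658 blocked, 0.210 unblocked). DDR2, a collagen receptor, had means of 80.3 and 44.7 CPM, and FLT1, a VEGF receptor, of 20.8 and 7.22 CPM. EPHB2, an ephrin receptor, had means of 21.4 and 10.5 CPM, and FGFR4 of 90.9 and 58.9 CPM. In that order of DDR2, FLT1, EPHB2 and FGFR4, blocked adjusted p-values were 0.00769, 0.0138, 0.00945 and 0.0229, and unblocked ones 0.650, 0.363, 0.443 and 0.694. The other 3 called, outside the naming rule and named after their values were seen, were ROR2 and MUSK, lower, and RYK, the higher one. RYK had means of 20.5 and 35.1 CPM (limma adjusted p 0.0272 blocked, 0.304 unblocked). ROR2 had means of 5.21 and 0.715 CPM (0.0313 blocked, 0.385 unblocked) and MUSK of 2.775 and 0.295 CPM (0.0372 blocked, 0.210 unblocked). The siG9a means of ROR2 and MUSK lay under the floor of 3 reads. DDR2, FLT1 and EPHB2 lost the call without pair 1 or 2, and FGFR4 in each fit without a pair. Unblocked and without siG9a replicate 3, DDR2 changed by −0.26, EPHB2 by −0.68 and FGFR4 by −0.14, and without control replicate 3 DDR2 changed by −1.38 and FGFR4 by −1.10. The count of 8 fell to 4 when pair 3 was left out. The 9 receptors and these receptors were fitted in the same model, and no test of a difference between the 2 groups of genes was made.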

How the data were processed

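The deposited table holds CPM to 2 decimals for 60234 genes. Per the submitters' processing notes, FastQC 0.11.8, Trim Galore, STAR 2.5.0a, HTSeq 0.8.0 and edgeR 3.28 were used, with GRCh38 and hg19 named and no role or order given, so no gene coordinates are printed beside the RefSeq start regions. Per the labels' protocols, libraries were QuantSeq 3′ mRNA, read single-end on a NextSeq500. The members and gene lists were chosen with earlier results of these data known.

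Whole reads were recovered from the CPM the authors deposited (100% of non-zero values within 0.0051 CPM of a whole number of reads). They served the Wilson intervals, edgeR 4.0.16 (TMM, quasi-likelihood) and DESeq2 1.42.0. Intervals and floors cover counting error only, since use of molecular identifiers is not given in the sources used here. The main test was limma 3.58.1 (R 4.3.3) on log2(CPM + 1), eBayes with trend, two-sided, over the 15092 genes averaging 1 CPM or more, with Benjamini-Hochberg adjustment and a threshold of 0.05. Since CPM sums are equal in all libraries, abundant genes that shift also move the rest. The fits were run on simulated counts with a common dispersion for all genes and means that differed by replicate number. Because the pairing was built in, that run cannot show whether the block suits these libraries.

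Replicate numbers come from the sample titles. Deviations from group means of libraries with the same number had correlations across genes of 0.500, 0.104, 0.673 and 0.130 (numbers 1 to 4, each above 0.1). Only 2 of the 4 pairs were each other's best match, and control 2 with siG9a 4 reached 0.144. By the rule that every pair exceed 0.1, the fit with the number as a block is given beside results it changes. The design text calls the replicates biological, and cultures are not described further. Named genes were the 9 receptors, EHMT2, at most the 5 list genes with the smallest blocked adjusted p, and the 3 genes most like each receptor averaging 10 CPM or more. One list gene taken by this rule is counted but not reported here. Alternatives were other pseudocounts, filters, scalings, weights, tools and left-out libraries.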

Additional observations from a re-analysis of the deposited data

Results flagged for a closer look

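Of 78 groups of 4 libraries examined for the named genes, 10 had a library whose gap to the nearest other exceeded Dixon's 95% critical value. For independent groups of normal values about 3.9 would be expected. The groups here share libraries and some hold few reads, so 10 beside 3.9 does not show an excess. Among the receptors, MET was high in control replicate 4 (86.2 CPM, others 46.2 to 52.1) and KIT in control replicate 1 (12.3 CPM, others 10.3 to 10.5). RET was set apart by a single read in control replicate 1 (0.69 CPM) and in siG9a replicate 1 (0.52 CPM), with the others at 0. Beside such zeros any single read is flagged, so the RET flags carry no information. PLAU was high in siG9a replicate 1 (20.1 CPM, others 1.71 to 4.84) and SPRY1 in siG9a replicate 4 (33.3 CPM, others 11.99 to 14.96). The remaining 4 were low in control replicate 3: PDGFA (78.1 CPM, others 394 to 457), PDGFC (25.2 CPM, others 113 to 131), TSC1 (68.3 CPM, others 84.1 to 85.7) and DDR2 (17.8 CPM, others 96.1 to 108).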

How the results depend on the processing

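KIT stayed lower and MET and PDGFRA higher in siG9a, and EGFR and AXL lower, under every alternative run for them, and none of the 5 passed in any that gave an adjusted p. Their log2 changes, which include other pseudocounts and the edgeR and DESeq2 scales, ran from −0.85 to −0.48 for KIT, 0.03 to 0.48 for MET, 0.27 to 1.23 for PDGFRA, −0.51 to −0.02 for EGFR and −1.35 to −0.01 for AXL. ERBB3 was lower without control replicate 3 only, and passed once, with the replicate block and without pair 4, where the number of receptors called was 1 instead of 0. The PDGFRB log2 change was −0.081 with array weights and −0.65 with the replicate block and without pair 4, and leaving out 1 library gave −0.35 to 0.81. The ERBB2 log2 change was −0.13 with the replicate block and without pair 4, and leaving out 1 library gave −0.068 to 0.31. The ERBB3 log2 change without 1 library ran from −0.094 to 0.99. PDGFRA and PDGFRB were not tested under a filter of 5 CPM and had no DESeq2 adjusted p with or without the block, so they could not pass there. Over all genes the number called was 0 in limma and 18 without a filter, 436 with array weights, 292 with DESeq2 and 413 without both number 3 libraries. With the replicate block it was 1717 (limma), 1711 (edgeR) and 936 (DESeq2). Leaving out 1 library gave 0 to 300 without the block, and leaving out pair 1, 2, 3 or 4 with it gave 951, 668, 1078 and 1393; the 300 came without control replicate 3. The blocked list counts were 3 ligands, 5 co-receptors and proteases, 3 adaptors, 3 negative regulators, 2 PI3K-AKT, 4 RAS-MAPK, 4 output and 8 other receptor genes. Without pair 3, an alternative chosen after seeing the data, they were 3, 4, 2, 1, 1, 4, 3 and 4. Depth limits RET, PDGFRA, PDGFRB, EGFR and KIT most, with 2, 45, 50, 90 and 118 reads in all.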
